A study of Homo sapiens with 12 samples.

Results

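The proteasome genes analysed here were the 48 genes, of 26364 in the deposited count table, whose symbol is PSM followed by one of the letters A to G and a number. They encode the subunits, activators, inhibitor and assembly chaperones of the proteasome, and 46 of them had enough counts to be tested. HepG2, a human line that came from a liver tumour, was given insulin, and RNA-seq libraries were made in duplicate before it (0 min) and after 5, 10, 30 and 240 min, giving 10 libraries. The later times had no insulin-free culture beside them. In the study's HepG2 protocol, cells were kept in insulin for days and then washed before acute insulin. Thus 0 min, or before insulin, may not mean cells never given insulin. The treatment text of all 10 libraries gives 3 nM insulin for 5 min, those at 0 min included, so the library titles were used for the time. The study describes its RNA-seq as 1 experiment on biologically independent samples, so p-values measure the spread between samples of that experiment. A ChIP-seq library of the insulin receptor (IR) in the same cell line, whose treatment text gives a washout and then 3 nM insulin, was without a replicate. The labels give an RNA kit for the ChIP-seq library and a DNA extraction for the RNA-seq libraries, so the treatment texts of the assays may be interchanged too, and the exact treatment of either is uncertain.

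At 240 min, 13 of the 46 tested genes were higher and 4 were lower than at 0 min, and none passed the test at 5, 10 or 30 min. The rises lay in several parts of the enzyme and in its assembly chaperones, with 4 of 8 lid genes and 1 of 9 base genes called higher. They included PSMD12, PSMD6, PSMD7 and PSMD11 of the lid, PSMA3 and PSMA4 of the core, PSME3 and PSME4 among the activators, and the assembly chaperones PSMG1, PSMG3 and PSMD5. PSMD12 had the largest rise, to 1.39 times its level at 0 min, and PSMG2 the largest fall, to 0.846 times. All changes were small, and the share of these genes that changed (37.0%) was near the 41.0% of all tested genes that did.

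The proteasome degrades proteins tagged with ubiquitin. Its core particle is a barrel of alpha and beta rings, of which certain beta subunits carry the active sites, and its regulatory particle has a base, with a ring of ATPases that unfolds substrates, and a lid, which removes ubiquitin. Other caps, here called activators, can replace the regulatory particle, dedicated chaperones build the rings, and the transcription factor NRF1, encoded by NFE2L1, is known to raise proteasome genes when the enzyme is impaired. In liver cells the proteasome clears short-lived regulators and misfolded proteins, and insulin is known for restraining protein breakdown in this tissue.

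Libraries held 18347109 to 45005769 counts on genes, and 0 min replicate 2 was the deepest, with the next at 28087570. ERCC spike-in transcripts made up 1.59% to 2.36% of the counts. Hepatocyte markers (8 of 8, among them ALB, APOB and HNF4A) summed to 66418 to 82312 CPM (gene counts scaled to library size) in each library. Of the 6 markers of other cell types, PTPRC was at 0 and the others without LYZ summed to 3.75 to 4.89 CPM, while LYZ was abundant, at 4804 to 6433 CPM. In bulk RNA, fewer cells of a type and less RNA per cell cannot be told apart.

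Levels were compared between genes as TPM, which the authors scaled for length. In the core at 0 min, TPM ranged from 73.5 ± 5.07 (SD, n = 2) for PSMA5 to 574 (libraries at 582 and 565) for PSMA6 among the 7 alpha genes, and from 63.3 ± 5.49 (SD, n = 2) for PSMB2 to 511 ± 12.4 (SD, n = 2) for PSMB1 among the 7 constitutive beta genes. Genes of the base and the lid were in a narrower band, from 66.2 TPM (PSMC1) to 217 TPM (PSMC5) in the base and from 73.6 TPM (PSMD11) to 188 TPM (PSMD7) in the lid. Among the activators, PSME1 and PSME2, which form 1 cap together, were at 481 and 418 TPM, above PSME3 at 151 TPM and PSME4 at 118 TPM. The 7 assembly chaperones ranged from 19.0 TPM (PSMG3) to 110.2 TPM (PSMG2), with a median of 28.6 TPM.

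**Figure D1:**
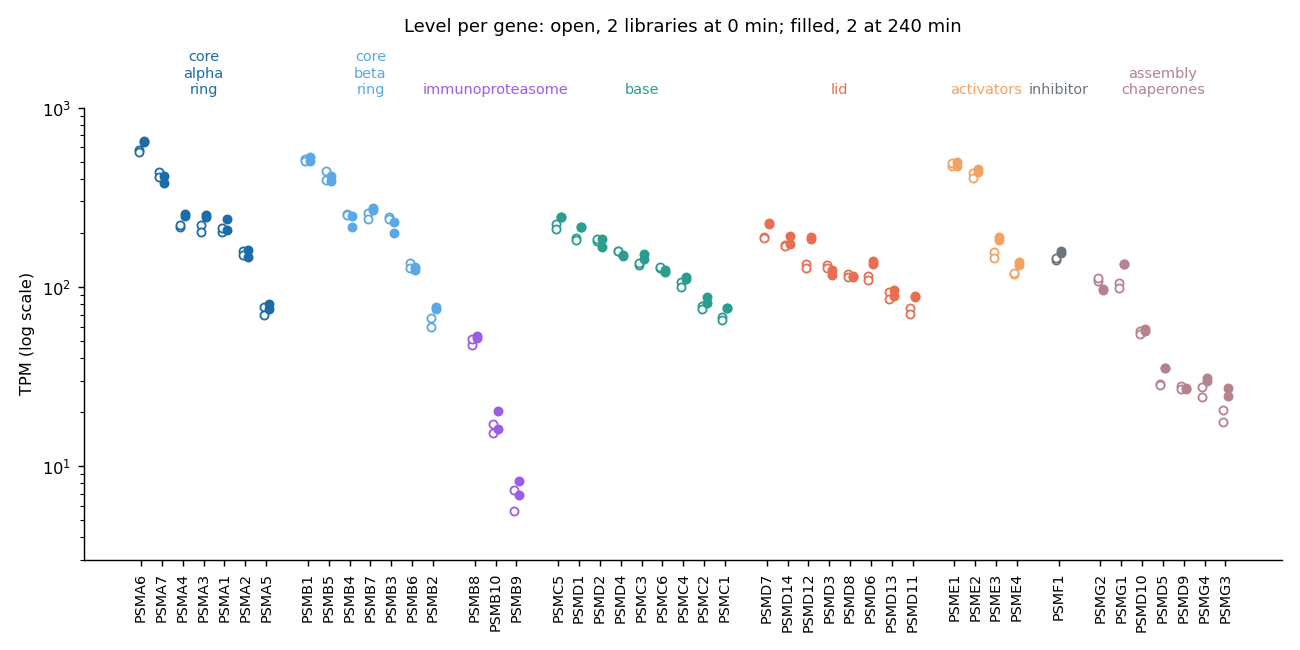
TPM (log scale) of each proteasome gene above 1 TPM at 0 min, by subcomplex, with open points for the 2 libraries at 0 min and filled points for the 2 at 240 min. The core genes PSMA6 and PSMB1 were above 500 TPM, whereas the immunoproteasome genes PSMB10 and PSMB9 were at 16.2 and 6.50 TPM at 0 min.

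The subcomplexes were then summed in TPM in each library, as a description with no test. Lid transcripts summed to 1032 and 992 TPM at 0 min and to 1130.2 and 1169.7 TPM at 240 min. Base transcripts summed to 1264 and 1243 TPM at 0 min and to 1319 and 1344 TPM at 240 min. Alpha ring transcripts summed to 1893 and 1833 TPM at 0 min and to 1957 and 2041 TPM at 240 min. In these subcomplexes both libraries at 240 min were above both at 0 min, and so were those of the activators, the inhibitor and the assembly chaperones. The beta ring differed from this, with sums of 1874 and 1858 TPM at 0 min and 1805 and 1879 TPM at 240 min, which overlap. The sums of the immunoproteasome and tissue-specific core genes overlapped as well.

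The insulin receptor ChIP-seq library held 1971 peaks, with scores from 13 to 14106 and a median of 79. A peak lay within the gene body extended by 5 kb for 9 of the 48 genes (18.8%), against 15.7% of all genes tested. In 6 of the 9 (PSMD2, PSMC3, PSMA7, PSMD10, PSMA2 and PSMD3) the peak covered the gene's start, which is 12.5% of the 48 genes, against 8.61% of all genes tested. The authors' annotation gave the peaks at PSMA5, PSMD11 and PSME2 to the starts of neighbouring genes, SORT1, CDK5R1 and RNF31. The peak at PSME2 lay 7 bases from the start of PSME2 as well. The highest scores were 348 at PSMD2 (chr3:184016674-184017073 in hg19) and 247 at PSMC3 (chr11:47447754-47448377), both genes of the base, and the highest peaks of the other 7 genes had scores of 16 to 80. With 1 library these counts have no replicate check. The only one of the 6 genes with a peak over the start that changed at 240 min was PSMD3, whose peak had a score of 22. Of all genes tested, 41.0% changed, and a relation between peaks and changes was not tested.

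The promoters of 4 genes are shown, as the 250 bases before the gene's start in the GRCh37 reference genome, 5′ to 3′ on the gene's strand: the pair with the highest IR peaks, and the pair with the largest rise and the largest fall. Capitals mark TGACNNNGC, the core of the antioxidant response element to which NRF1 and its relative NRF2 bind, searched on both strands. The windows are chr3:184016636-184016885 (plus strand) for PSMD2, chr11:47448025-47448274 (minus strand) for PSMC3, chr17:65362722-65362971 (minus strand) for PSMD12 and chr18:12658488-12658737 (plus strand) for PSMG2. The IR peak at PSMC3 spans its whole window, and the one at PSMD2 spans all but the upstream end.
PSMD2: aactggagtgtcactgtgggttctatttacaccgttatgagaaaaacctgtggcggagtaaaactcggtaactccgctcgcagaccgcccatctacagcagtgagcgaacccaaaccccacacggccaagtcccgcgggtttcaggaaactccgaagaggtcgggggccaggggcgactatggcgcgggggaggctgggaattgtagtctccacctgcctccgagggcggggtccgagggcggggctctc
PSMC3: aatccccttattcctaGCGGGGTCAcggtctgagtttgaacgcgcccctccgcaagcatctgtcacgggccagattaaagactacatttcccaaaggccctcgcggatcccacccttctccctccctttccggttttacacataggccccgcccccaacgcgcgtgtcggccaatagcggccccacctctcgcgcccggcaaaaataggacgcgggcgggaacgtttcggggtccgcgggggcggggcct
PSMD12: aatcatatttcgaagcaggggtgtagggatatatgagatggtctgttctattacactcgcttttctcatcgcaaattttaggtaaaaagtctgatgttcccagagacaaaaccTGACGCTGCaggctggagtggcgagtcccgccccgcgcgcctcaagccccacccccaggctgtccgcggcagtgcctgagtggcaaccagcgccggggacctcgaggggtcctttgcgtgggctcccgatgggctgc
PSMG2: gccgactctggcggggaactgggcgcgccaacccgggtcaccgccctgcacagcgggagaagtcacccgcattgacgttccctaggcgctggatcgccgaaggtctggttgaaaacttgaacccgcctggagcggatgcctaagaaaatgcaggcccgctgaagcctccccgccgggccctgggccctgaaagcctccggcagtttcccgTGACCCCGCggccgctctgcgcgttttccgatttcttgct
In PSMD12 the match starts 137 bases and in PSMG2 40 bases before the gene's start, both on the gene's strand, so the pattern stands before both the gene that rose most and the gene that fell most. Windows of this length held a match in 14 of the 48 proteasome genes (29.2%) and in 1591 of the 13852 genes tested (11.5%). In PSMA6 and PSMD6 the match lay within 12 bases of CCAGCCTG, a phrase of the common Alu repeat. Leaving such matches out gave 12 of 48 (25.0%) against 11.4% of the genes tested. The proteasome promoters had a median GC content of 58.0% and those of all genes tested 62.8%. A match in these letters is no evidence that a factor binds.

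**Figure D2:**
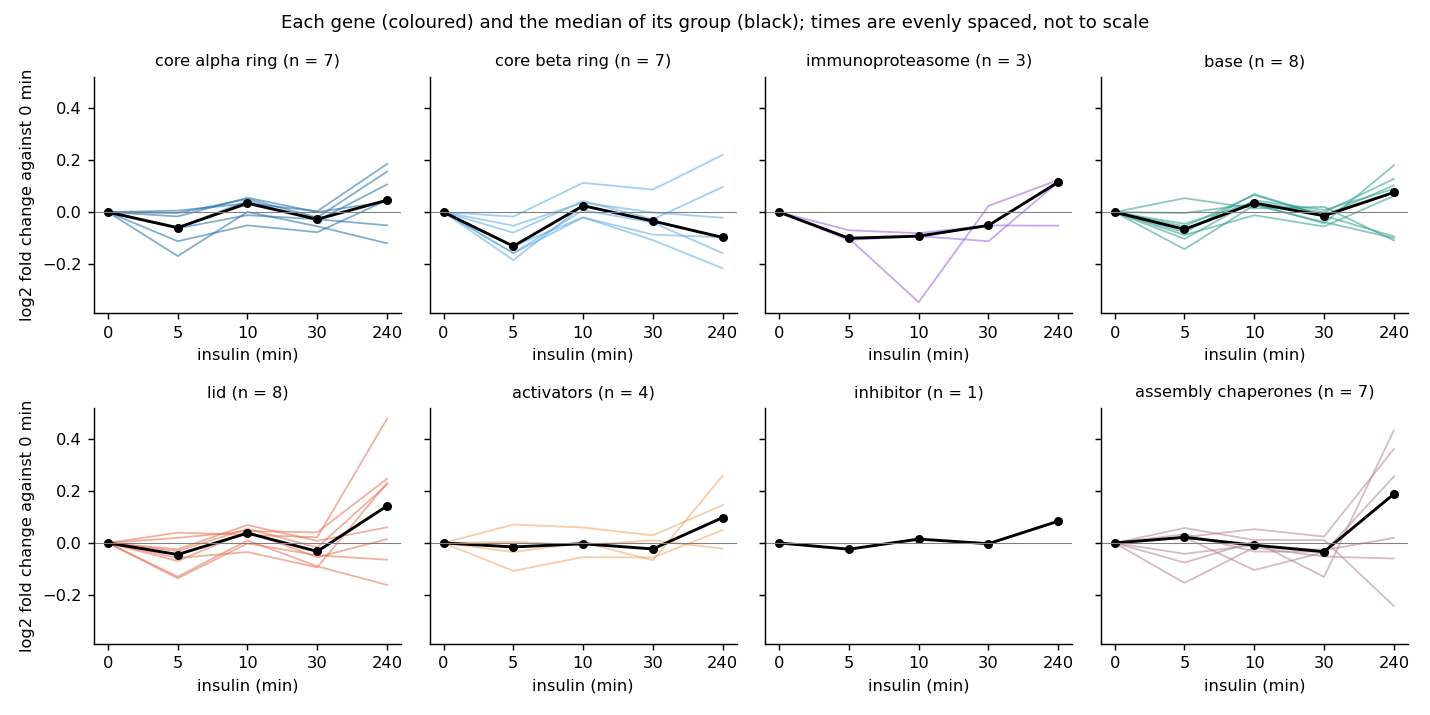
Log2 change against 0 min at 5, 10, 30 and 240 min (vertical axis) for each tested gene (coloured lines, PSMC1 left out) and the median of its subcomplex (black), with n genes in each panel. Apart from PSMB9 at 10 min (-0.35, from few counts), the lines lie close to 0 up to 30 min. They spread at 240 min, most in the lid and the assembly chaperones. All 4 comparisons share the 0 min libraries.

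Whether proteasome transcripts differed early after insulin was addressed by the comparisons of 5, 10 and 30 min with 0 min. At 5 min, 0 of 46 genes passed the test (adjusted p under 0.05, edgeR quasi-likelihood test), as did 0% of all genes tested, and DESeq2 and limma on TPM also called 0. Their median log2 change (log2 of the later level over the earlier one) was -0.06, against 8.43e-05 for all genes, and 35 of the 46 were below 0. At an unadjusted p under 0.05, 9 genes were lower and none higher by edgeR, and this threshold was met by 14.3% of all genes. These were PSMB3, PSMB4, PSMB5 and PSMB6 of the beta ring, PSMA7, PSMD2, PSMD3, PSMD8 and PSMD9, with log2 changes of -0.18 (PSMB6) to -0.13 (PSMD3). Leaving out a library moved that number to 13 (0 min replicate 2) or to 1 (either 0 min replicate 1 or 5 min replicate 2), DESeq2 gave 5, and edgeR with ERCC scaling gave 0.

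At 10 and 30 min, 0 of 46 genes passed the edgeR test, against 0.137% and 0.332% of all genes tested, and DESeq2 and limma on TPM called 0 as well. At both times 0 genes were under an unadjusted p of 0.05 by edgeR and by DESeq2, a threshold that edgeR met in 5.13% of all genes tested at 10 min and in 8.12% at 30 min. At 10 min the median log2 change was 0.01, at 30 min it was -0.03, and a single gene had a median standard error of 0.056 at both. With ERCC scaling at 10 min the medians were -0.31 for these genes and -0.33 for all genes, and 5 of the 46 were under an unadjusted p of 0.05 by edgeR, while 0 passed after adjustment. The largest difference up to 30 min in a gene above 1 CPM was that of PSMB9 at 10 min, with a log2 change of -0.35 from few counts.

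The comparison of 240 min with 0 min asked how these transcripts differed after hours of insulin. Without an insulin-free culture at 240 min, insulin and time in culture cannot be told apart. Of the 46 genes, 13 (28.3%) were higher and 4 (8.70%) lower by edgeR, against 20.6% higher and 20.4% lower of all genes tested. The median log2 change was 0.07 (0.06 without PSMC1), and it was -0.0026 for all genes tested. The libraries at 240 min lay wholly above those at 0 min in 22 of the 46 genes and wholly below in 12. Among all 13852 genes tested these numbers were 4826 and 4835, so groups that do not overlap were common. By subcomplex, 2 of 7 alpha genes rose, 1 of 7 beta genes rose and 2 fell, 1 of 9 base genes rose, 4 of 8 lid genes rose and 1 fell, 2 of 4 activators rose, and 3 of 7 assembly chaperones rose and 1 fell. DESeq2 called 13 higher and 3 lower, and limma on TPM 18 higher and 1 lower.

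These calls rest on scaling by the counts of the genes themselves (TMM), and all 17 also passed with RLE, another such scaling. With scaling by the ERCC spike-ins, the median of all genes fell by 0.12 on the log2 scale and 0 of the 17 genes passed, though each kept its sign and the median of the proteasome genes lay 0.07 above that of all genes, as before. Without 0 min replicate 2 the calls were 6 higher and 3 lower, and without 240 min replicate 1 they were 9 higher and 1 lower. Without 0 min replicate 1 the number lower was 1.

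**Figure D3:**
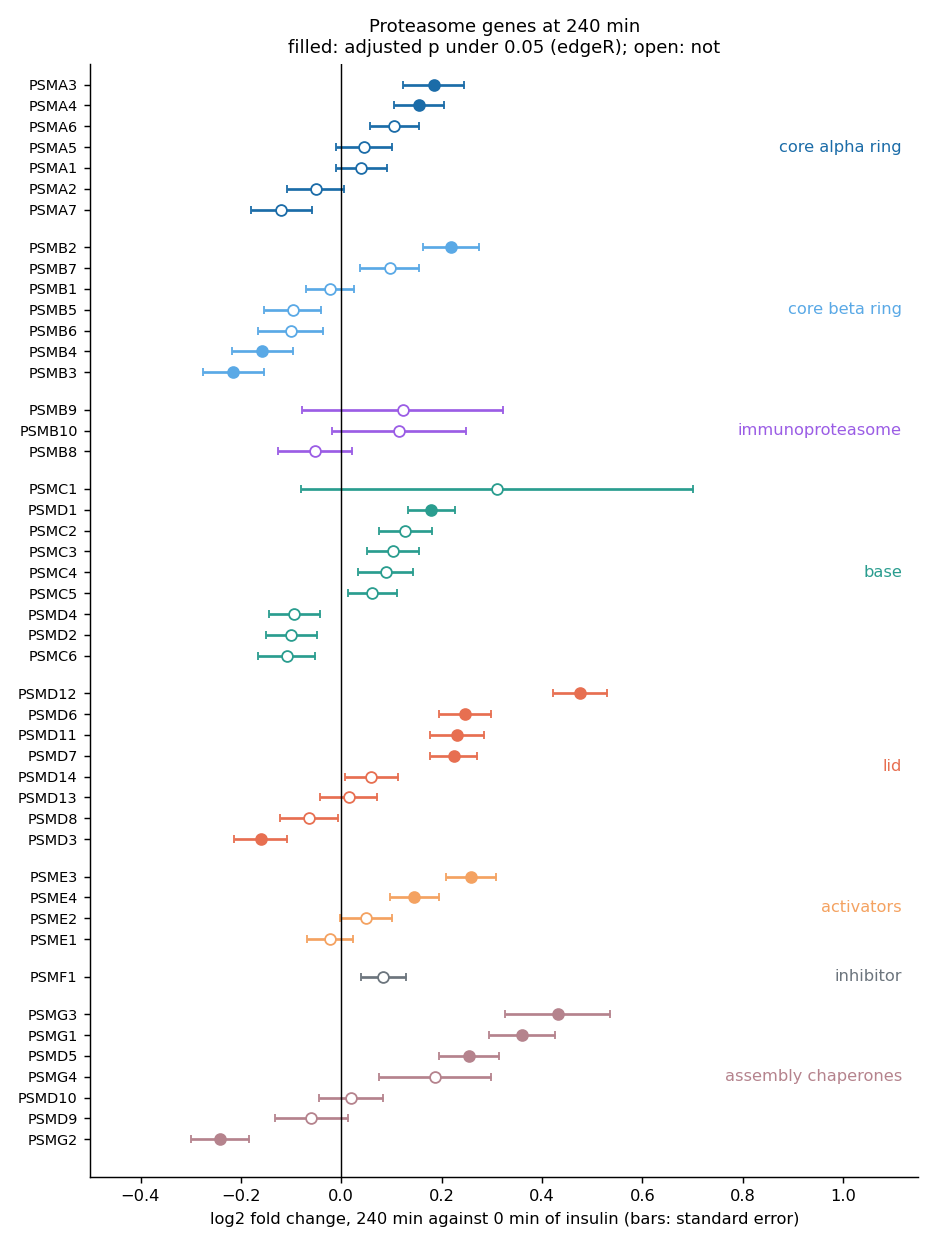
Log2 change of the 46 tested genes at 240 min against 0 min (horizontal axis, bars show the standard error), grouped by subcomplex and ordered within it, with filled points where the adjusted p was under 0.05 (edgeR). PSMD12 (0.48), PSMG3 (0.43) and PSMG1 (0.36) stand to the right of all other called genes, and PSMG2 (-0.24) and PSMB3 (-0.22) to the left. The wide bar is PSMC1, which had few counts.

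In the alpha ring, which gates entry to the core, PSMA3 had the largest rise. PSMA3 measured 90.9 and 82.3 CPM before insulin, 87.2 and 86.0 after 5 min, 83.1 and 93.7 after 10 min, 88.1 and 84.8 after 30 min and 100.2 and 95.8 after 240 min. Both libraries at 240 min were the highest of the 10. Its level went from 86.6 ± 6.08 CPM (SD, n = 2) to 98.0 ± 3.14 CPM (SD, n = 2), a log2 change of 0.18 ± 0.06 (SE, adjusted p = 0.0198 by edgeR). The call was lost without 0 min replicate 2 (log2 change 0.11, adjusted p = 0.299, edgeR) and without 240 min replicate 1 (0.15, adjusted p = 0.149, edgeR). PSMA4 also rose, with a log2 change of 0.15 ± 0.05 (SE, adjusted p = 0.0173 by edgeR), which did not pass without either of the 0 min libraries or without 240 min replicate 1. PSMA7 had the lowest log2 change of the ring. PSMA7 measured 182 and 169 CPM before insulin, 167 and 145 after 5 min, 174 and 177 after 10 min, 170.4 and 167 after 30 min and 156 and 167 after 240 min. Its groups at 0 and 240 min did not overlap, which was common among all genes tested, and the log2 change of -0.12 did not pass the test (edgeR, adjusted p = 0.122). PSMA1, PSMA2, PSMA5 and PSMA6 did not pass, with log2 changes of -0.05 to 0.11.

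In the beta ring, where the active sites lie, PSMB2 rose and PSMB3 and PSMB4 fell, and none of the 3 is a catalytic subunit. PSMB2 measured 127 and 112 CPM before insulin, 117 and 119 after 5 min, 131 and 127 after 10 min, 125 and 129 after 30 min and 143 and 135 after 240 min. The 240 min libraries were the highest of the 10, and the pair at 0 min were far apart, with replicate 2 the lowest of the 10. The log2 change was 0.22 ± 0.06 (SE, adjusted p = 0.00386 by edgeR), and 0.12 without 0 min replicate 2 (edgeR, adjusted p = 0.151). PSMB3 measured 79.5 and 76.4 CPM before insulin, 73.6 and 68.3 after 5 min, 73.7 and 79.9 after 10 min, 72.8 and 71.5 after 30 min and 63.7 and 70.7 after 240 min. Its 240 min libraries were below both at 0 min, while replicate 2 at 240 min was above replicate 2 at 5 min. The log2 change was -0.22 ± 0.06 (SE, adjusted p = 0.00763 by edgeR). PSMB4 had a log2 change of -0.16 (edgeR, adjusted p = 0.0449), which no longer passed with DESeq2 (adjusted p = 0.0755). Without 240 min replicate 1 the log2 change was -0.14 for PSMB3 (edgeR, adjusted p = 0.149) and -0.07 for PSMB4 (edgeR, adjusted p = 0.457). Without 0 min replicate 1 neither passed (edgeR, adjusted p = 0.0522 for PSMB3 and 0.157 for PSMB4), and PSMB4 was also lost without 0 min replicate 2 or either 10 min library. Neither fall passed with limma on TPM (adjusted p = 0.0883 for PSMB3 and 0.279 for PSMB4). The catalytic subunits PSMB5, PSMB6 and PSMB7 had log2 changes of -0.10, -0.10 and 0.10, and none passed.

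The immunoproteasome subunits PSMB8, PSMB9 and PSMB10 take the places of PSMB5, PSMB6 and PSMB7 in cells exposed to interferon. In TPM at 0 min, PSMB8 was at 49.3 ± 2.99 (SD, n = 2) against 418 ± 32.1 (SD, n = 2) for PSMB5. PSMB9 was at 6.50 ± 1.23 TPM (SD, n = 2) against 132 ± 6.22 TPM (SD, n = 2) for PSMB6, and PSMB10 at 16.2 ± 1.38 TPM (SD, n = 2) against 249 ± 13.0 TPM (SD, n = 2) for PSMB7. The constitutive partner was thus the higher in each pair. In these cells PSMB8 measured 30.1 and 28.2 CPM before insulin, 28.4 and 26.8 after 5 min, 29.1 and 25.7 after 10 min, 28.5 and 27.4 after 30 min and 27.6 and 28.4 after 240 min. Levels of PSMB9 were 2.41 and 3.14 CPM before insulin, 2.38 and 3.02 after 5 min, 2.45 and 2.04 after 10 min, 3.30 and 2.43 after 30 min and 2.92 and 3.37 after 240 min. Those of PSMB10 were 6.31 and 7.03 CPM before insulin, 6.85 and 5.60 after 5 min, 6.27 and 6.39 after 10 min, 6.46 and 5.97 after 30 min and 6.56 and 8.20 after 240 min. The libraries at 0 and 240 min overlapped in PSMB8, PSMB9 and PSMB10, and none of the 3 passed the test at any time. The pair at 240 min lay above the pair at 10 min in PSMB9 and above the pairs at 10 and 30 min in PSMB10. At 240 min their log2 changes were -0.05, 0.12 and 0.11, and each changed sign under some alternative. The approximate 95% intervals were -0.20 to 0.09 for PSMB8, -0.27 to 0.52 for PSMB9 and -0.15 to 0.38 for PSMB10. PSMB11, the thymus-specific beta subunit, had 1 count in all, in 0 min replicate 2, and PSMA8, the testis-specific alpha subunit, had 0 counts of 254846708, which allows up to 0.0118 CPM (3 counts over all libraries, counting error only).

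The base rose in 1 of 9 genes. That was PSMD1, a scaffold of the base that binds the ubiquitin receptor ADRM1, with a log2 change of 0.18 ± 0.05 (SE, adjusted p = 0.00462 by edgeR). Its means were 250.1 ± 5.39 CPM (SD, n = 2) at 0 min and 283 ± 4.57 CPM (SD, n = 2) at 240 min, and the call was lost without 0 min replicate 2 (edgeR, adjusted p = 0.0646). Of the ATPases, PSMC2, PSMC3, PSMC4 and PSMC5 were at 0.06 to 0.13 and PSMC6 at -0.11 on the log2 scale, and none passed. PSMC6 measured 60.3 and 59.9 CPM before insulin, 60.6 and 64.2 after 5 min, 58.3 and 63.2 after 10 min, 59.4 and 62.7 after 30 min and 56.2 and 55.3 after 240 min. All libraries before 240 min were above the pair at 240 min (edgeR, adjusted p = 0.139). The ATPase PSMC1 had the highest log2 change of the base in counts, 0.31, with a standard error of 0.39. PSMC1 measured 0.418 and 0.561 CPM before insulin, 0.871 and 0.383 after 5 min, 0.650 and 0.809 after 10 min, 0.754 and 0.826 after 30 min and 0.680 and 0.578 after 240 min. Its counts, 8 to 25 reads per library, are uncertain. Its TPM was 106 times its CPM over the libraries, whereas this ratio was 0.353 to 3.81 in the other 45 genes, and the reason was not tested. In TPM, PSMC1 was at 67.5 and 65.0 at 0 min and 76.1 and 76.3 at 240 min, and limma on log2(TPM + 1) called it higher (0.20, adjusted p = 0.0221).

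The lid held the largest rise of all 46 genes, that of PSMD12, a scaffold subunit encoded at chromosome 17, 65336619 to 65362721 (hg19, minus strand). PSMD12 measured 96.1 and 90.7 CPM before insulin, 94.2 and 97.4 after 5 min, 90.9 and 99.6 after 10 min, 92.8 and 96.6 after 30 min and 132 and 127 after 240 min. The pair at 240 min stood clear of the other 8 libraries, which did not separate by time. From 93.4 ± 3.87 CPM (SD, n = 2) it went to 129.5 ± 3.54 CPM (SD, n = 2), a log2 change of 0.48 ± 0.05 (SE, adjusted p = 1.03e-06 by edgeR). Leaving out any library gave 0.43 to 0.51 (highest adjusted p = 0.000138, edgeR), and with ERCC scaling it was 0.36 (edgeR, adjusted p = 0.257). PSMD6 and PSMD11, also scaffold subunits of the lid, and PSMD7 had log2 changes of 0.25, 0.23 and 0.22 (adjusted p = 0.000836, 0.00191 and 0.000886, edgeR), and that of PSMD11 was 0.16 without 0 min replicate 2 (edgeR, adjusted p = 0.0762). PSMD7 is the partner of PSMD14, the deubiquitinase of the lid, which did not pass (0.06, adjusted p = 0.39, edgeR). PSMD3 was the lid gene that fell. PSMD3 measured 118 and 112 CPM before insulin, 109 and 99.8 after 5 min, 115 and 115 after 10 min, 108 and 107 after 30 min and 99.8 and 105 after 240 min. The pair at 240 min was below the pair at 0 min but overlapped that at 5 min. The log2 change was -0.16 ± 0.05 (SE, adjusted p = 0.0205 by edgeR), and it did not pass with limma on TPM (adjusted p = 0.15), without 0 min replicate 1 (edgeR, adjusted p = 0.143) or without 240 min replicate 1 (edgeR, adjusted p = 0.169).

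**Figure D4:**
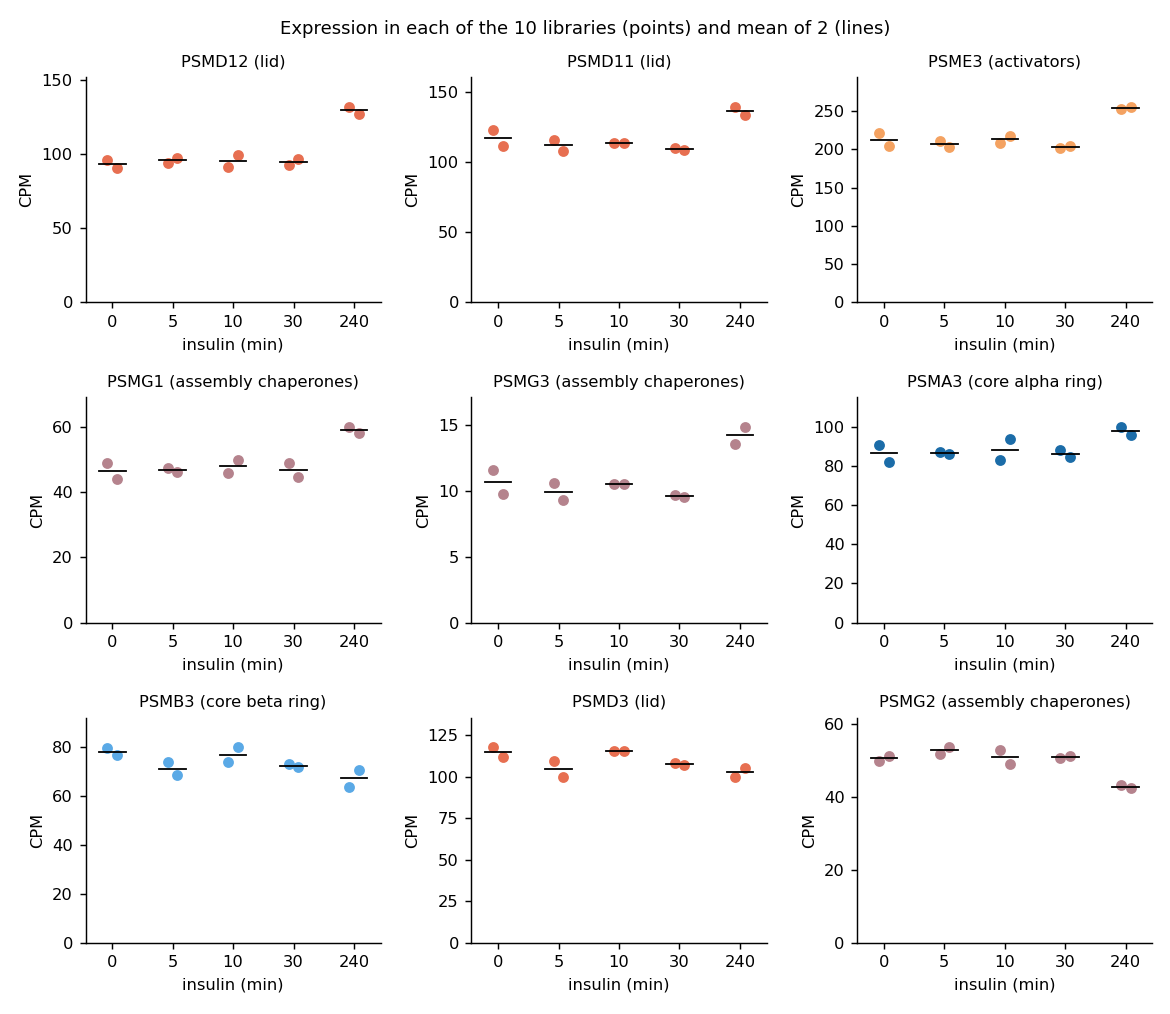
CPM in each of the 10 libraries (points, horizontal lines show the mean of 2) against minutes of insulin for 9 genes, with each vertical axis from 0. In PSMD12, PSMD11, PSME3, PSMG1 and PSMG3 the 240 min libraries were above the other 8, and in PSMG2 they were below them.

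Among the activators, PSME3 and PSME4 rose. PSME3, whose product caps the core in the nucleus, measured 222 and 204 CPM before insulin, 212 and 204 after 5 min, 209 and 217 after 10 min, 202 and 204 after 30 min and 253 and 256 after 240 min. The 240 min libraries were the highest of the 10. Its log2 change was 0.26 ± 0.05 (SE, adjusted p = 0.000358 by edgeR). PSME4, which encodes a large single-chain activator also found in the nucleus, measured 341 and 339 CPM before insulin, 355 and 358 after 5 min, 350.1 and 358 after 10 min, 335 and 358 after 30 min and 385 and 366 after 240 min. Its pair at 240 min was again above all others, and the log2 change was 0.15 ± 0.05 (SE, adjusted p = 0.0224 by edgeR), which was lost without 0 min replicate 1 (adjusted p = 0.0782), without 0 min replicate 2 (0.113) and without 240 min replicate 1 (0.187, all edgeR). The other activators, PSME1 and PSME2, are induced by interferon. PSME1 measured 195 and 202 CPM before insulin, 197 and 202 after 5 min, 200.3 and 194 after 10 min, 203 and 197 after 30 min and 195 and 197 after 240 min. PSME2 measured 117 and 106 CPM before insulin, 105 and 101 after 5 min, 106 and 107 after 10 min, 108 and 105 after 30 min and 114 and 116 after 240 min. The 0 and 240 min libraries of PSME2 overlapped, though its pair at 240 min was above those at 5, 10 and 30 min. Those of PSME1 overlapped as well. Their log2 changes at 240 min were -0.02 (edgeR, adjusted p = 0.74) and 0.05 (edgeR, adjusted p = 0.476), of either sign over the alternatives. PSME2 overlaps the microRNA gene MIR7703 on the same strand, so its counts are less certain.

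PSMF1, which encodes an inhibitor of the core, measured 213 and 217 CPM before insulin, 212 and 211 after 5 min, 219 and 215 after 10 min, 219 and 211 after 30 min and 229 and 227 after 240 min. The pair at 240 min was the highest of the 10 by a small margin. Its log2 change of 0.08 ± 0.04 (SE) did not pass the test (edgeR, adjusted p = 0.147), passed with limma on log2(TPM + 1) (0.12, adjusted p = 0.0354), and was -0.03 with ERCC scaling.

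Of the assembly chaperones, 3 of 7 rose and 1 fell. PSMG3, which with PSMG4 helps to build the alpha ring, measured 11.6 and 9.79 CPM before insulin, 10.6 and 9.28 after 5 min, 10.6 and 10.6 after 10 min, 9.69 and 9.52 after 30 min and 13.6 and 14.9 after 240 min. Both 240 min libraries were above the other 8. The log2 change was 0.43 ± 0.10 (SE, adjusted p = 0.00262 by edgeR), and 0.29 without 0 min replicate 2 (edgeR, adjusted p = 0.105). PSMG4 had a log2 change of 0.19 (approximate 95% interval -0.03 to 0.40) that did not pass (edgeR, adjusted p = 0.191). PSMG1 and PSMG2 encode the partners of another chaperone of the alpha ring, and they moved in opposite directions. PSMG1 measured 48.8 and 44.0 CPM before insulin, 47.4 and 46.2 after 5 min, 45.7 and 50.0 after 10 min, 49.0 and 44.5 after 30 min and 60.0 and 58.2 after 240 min. Its 240 min libraries were the highest of the 10, with a log2 change of 0.36 ± 0.07 (SE, adjusted p = 0.000207 by edgeR). PSMG2 measured 49.9 and 51.2 CPM before insulin, 51.8 and 53.7 after 5 min, 52.9 and 49.1 after 10 min, 50.8 and 51.3 after 30 min and 43.1 and 42.5 after 240 min. Its 240 min libraries were the lowest of the 10, with a log2 change of -0.24 ± 0.06 (SE, adjusted p = 0.00227 by edgeR). In TPM at 0 min PSMG1 and PSMG2 were at 102 and 110.2, and at 240 min at 134 and 96.6. PSMD5, PSMD9 and PSMD10 encode chaperones of the base. PSMD5 rose from 40.6 ± 0.809 CPM (SD, n = 2) to 48.3 ± 0.560 CPM (SD, n = 2), a log2 change of 0.25 ± 0.06 (SE, adjusted p = 0.002 by edgeR), while PSMD9 (-0.06) and PSMD10 (0.02) did not pass.

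The comparison of 240 min with 30 min does not use the 0 min libraries. In it 12 of 46 genes (26.1%) were higher and 1 (2.17%) lower by edgeR, against 19.8% and 18.4% of all genes tested (38.2% in either direction), with a median log2 change of 0.09. PSMD12 was again among the largest rises, with a log2 change of 0.45 ± 0.05 (SE, adjusted p = 2.07e-06 by edgeR), behind PSMG3 at 0.56 ± 0.11 (SE, adjusted p = 0.000424 by edgeR). PSMD11 was at 0.32, PSME3 at 0.32, PSMG1 at 0.34 and PSMD5 at 0.29 on the log2 scale, and PSMG2 at -0.25. The falls of PSMB3, PSMB4 and PSMD3 against 0 min did not pass against 30 min, and neither did the rises of PSMB2 and PSME4. The beta ring had 0 calls by edgeR, with 2 of its 7 genes at an unadjusted p under 0.05, against 46.2% of all genes tested. As with 0 min, 0 genes passed with ERCC scaling.

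Genes that act with the proteasome were described next, from lists of 20 associated factors, 4 ubiquitin genes and activating enzymes, 10 genes of NRF1 and NRF2 control and 11 genes of antigen processing. Of these 45 genes, 0 passed the edgeR test at 5, 10 or 30 min, beside 0%, 0.137% and 0.332% of all genes tested. DESeq2 and limma on log2(TPM + 1) called 0 as well. At an unadjusted p under 0.05 there were 6, 4 and 5 by edgeR, a threshold met by 14.3%, 5.13% and 8.12% of all genes tested. DESeq2 gave 4, 4 and 1 at that threshold, and limma 4, 2 and 3. At 240 min all 4 genes of the ubiquitin list were lower, as were 20.4% of all genes tested. UBB measured 303 and 292 CPM before insulin, 273 and 276 after 5 min, 281 and 275 after 10 min, 289 and 275 after 30 min and 232 and 226 after 240 min. This polyubiquitin gene, which encodes a chain of ubiquitin, was lowest in the 240 min libraries, with a log2 change of -0.38 (edgeR, adjusted p = 3.55e-06). RPS27A (-0.25), which encodes ubiquitin fused to a ribosomal protein, and the activating enzymes UBA1 (-0.21) and UBA6 (-0.19) were lower too. All 4 passed with DESeq2, while the calls of RPS27A and UBA1 were lost without 240 min replicate 1 and in the limma test of TPM. With ERCC scaling 0 of the 4 passed.

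**Figure D5:**
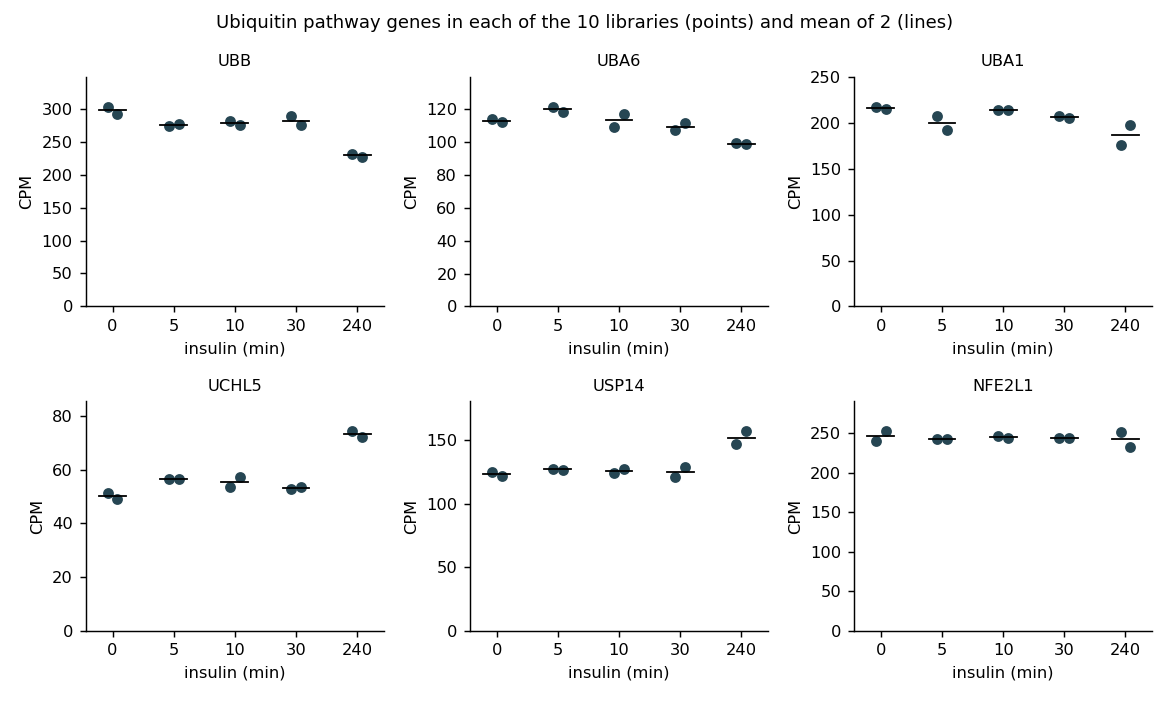
CPM in each of the 10 libraries (points, horizontal lines show the mean of 2) against minutes of insulin for 6 genes that act with the proteasome, with each vertical axis from 0. UBB, UBA6 and UBA1 were lower and UCHL5 and USP14 higher at 240 min than at 0 min, and NFE2L1 did not pass the test.

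Of the 20 associated factors, 7 (35.0%) rose and 2 (10.0%) fell at 240 min, a total share of 45.0% beside the 41.0% of all genes tested. The deubiquitinases of the regulatory particle, UCHL5 and USP14, had the largest rises. UCHL5 measured 51.2 and 49.2 CPM before insulin, 56.6 and 56.5 after 5 min, 53.5 and 57.2 after 10 min, 52.7 and 53.7 after 30 min and 74.3 and 72.1 after 240 min. USP14 measured 125 and 122 CPM before insulin, 128 and 126 after 5 min, 125 and 127 after 10 min, 121 and 129 after 30 min and 147 and 157 after 240 min. Both were highest at 240 min, with log2 changes of 0.55 (edgeR, adjusted p = 1.9e-07) and 0.30 (edgeR, adjusted p = 8.84e-05). ADRM1, the ubiquitin receptor that binds UCHL5 to the base, was at 0.19. The others that rose were UBQLN1, NSFL1C, UFD1L and ZFAND2A, at 0.14 to 0.22. AKIRIN2 (-0.25), which helps bring proteasomes into the nucleus, and KIAA0368 (-0.12), a proteasome scaffold, fell. KIAA0368 was near the threshold (edgeR, adjusted p = 0.0456). Its call was lost with DESeq2, with no filter on low counts, on the compared times alone and with limma on TPM. UFD1L (edgeR, adjusted p = 0.0467) was lost with DESeq2 and with no filter, and NSFL1C and ZFAND2A with DESeq2. Apart from those of UCHL5 and USP14, each call of this list, ADRM1 and UBQLN1 included, depended on single libraries at 0 or 240 min. POMP, the maturation factor of the core, had a log2 change of -0.09 (edgeR, adjusted p = 0.334). DESeq2 called 4 higher and 1 lower, without 0 min replicate 2 the calls were 2 higher and 0 lower, and with ERCC scaling 0 passed.

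In the list of NRF1 and NRF2 control, NFE2L1 itself measured 240.2 and 252 CPM before insulin, 243 and 242 after 5 min, 246 and 245 after 10 min, 244 and 244 after 30 min and 252 and 232 after 240 min. Its log2 change at 240 min was -0.02 (edgeR, adjusted p = 0.732), with the 0 and 240 min libraries overlapping. SYVN1, the ubiquitin ligase that keeps NRF1 low, fell by 0.50 on the log2 scale (edgeR, adjusted p = 8.66e-06), and DDI2, the protease that cuts NRF1 into its active form, fell by 0.26 (edgeR, adjusted p = 0.0268). The fall of DDI2 did not pass with DESeq2, without 0 min replicate 2 or without 240 min replicate 2. NFE2L2, which encodes NRF2, was at 0.18 (edgeR, adjusted p = 0.00845), and the other 6 genes did not pass. The rise of NFE2L2 was lost without 0 min replicate 1 and without 240 min replicate 1, and with ERCC scaling SYVN1 was the gene of this list that passed. In all, 1 of the 10 was higher and 2 were lower, beside 20.6% and 20.4% of all genes tested.

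In the antigen processing list, 5 of 11 genes (45.5%) fell and 1 (9.09%) rose at 240 min, beside 20.4% and 20.6% of all genes tested. NLRC5, the activator of class I genes, had a log2 change of -0.71 (edgeR, adjusted p = 0.000138), and the peptide transporter subunits TAP1 and TAP2 were at -0.37 and 0.40 (adjusted p = 0.000263 and 0.000317, edgeR). TAP1 measured 44.5 and 45.7 CPM before insulin, 43.9 and 42.4 after 5 min, 43.2 and 42.1 after 10 min, 47.1 and 42.6 after 30 min and 32.7 and 37.5 after 240 min. TAP2 measured 26.6 and 29.3 CPM before insulin, 28.0 and 24.6 after 5 min, 27.8 and 28.3 after 10 min, 28.2 and 25.1 after 30 min and 37.2 and 36.9 after 240 min. The partners of this transporter thus moved in opposite directions, with the 240 min libraries lowest for TAP1 and highest for TAP2. HLA-B, HLA-C and TAPBP were each at -0.18, and without 0 min replicate 2, without 240 min replicate 2 or with limma on TPM these 3 did not pass. With ERCC scaling NLRC5 alone of the list passed. Reads of the HLA genes can be shared among them, so their counts are uncertain.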

How the data were processed

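The RNA-seq libraries (2 at each of 0, 5, 10, 30 and 240 min) and 1 IR ChIP-seq library of HepG2 cells were used. The authors trimmed reads with Trim Galore 0.6.4, aligned them to hg19 with STAR 2.6.1d, counted them per gene by strand with featureCounts 1.6.4, and deposited raw counts. The authors also deposited TPM from StringTie, and TPM rows of the same gene symbol were summed here. For the ChIP-seq the authors aligned reads with BWA 0.7.17-r1188, called peaks with MACS2 2.2.7.1 and deposited the score of each peak with HOMER annotation. No column of per-sample values was left without a sample.

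Counts were tested with edgeR 4.0.16 (R 4.3.3) in 1 model of the 10 libraries, with TMM, filterByExpr, the quasi-likelihood test and Benjamini-Hochberg adjustment over all 13852 genes tested, and a gene was called, and described as having risen or fallen, at an adjusted p under 0.05. CPM are counts scaled to the TMM-adjusted library size. The 92 ERCC rows stayed out of library sizes. The 2 libraries of each time differed beyond counting noise (chi-square per degree of freedom 2.75 to 6.13). The edgeR step was tested on simulated data. Depth was 18347109 to 45005769 counts on genes.

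The genes, gene lists and naming rule were chosen with earlier results of these data known. Some genes of the pathway lists are not reported here. Values per library are given for the largest rise and fall of each subcomplex at 240 min and for all immunoproteasome, activator and inhibitor genes. Genes outside this rule were picked with values in view. The counts were also tested with DESeq2 1.42.0, unfiltered, with RLE, with ERCC scaling, on the compared times alone and with a replicate block, and again with each library left out. TPM were tested with limma 3.58.1 after adding a pseudocount of 1 or 0.1 before log2, or above a mean of 1 TPM. For peaks they were extensions of 1 and 20 kb, peaks with a score above the median, HOMER's nearest gene and at least 50% of the peak inside. Promoters were the 250 bases before the gene's start, as the StringTie table gives it, read from GRCh37. Figures were drawn with matplotlib 3.10.9, Python 3.11.15, pandas 2.3.3 and numpy 2.4.6.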

Additional observations from a re-analysis of the deposited data

Results flagged for a closer look

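The effects at 240 min and at 30 min, each against 0 min, differed in 13 of the 46 tested proteasome genes (28.3%). This was by a direct test of 240 min against 30 min (adjusted p under 0.05 over all genes tested, edgeR quasi-likelihood test), which called 38.2% of all genes tested. In log2 fold change, 240 min over 30 min, the largest of the 13 differences were 0.56 for PSMG3, 0.45 for PSMD12, 0.34 for PSMG1, 0.32 for PSME3 and 0.32 for PSMD11. Smaller differences were 0.29 for PSMD5, 0.24 for PSMD7, 0.22 for PSMD1, 0.21 for PSMD6, 0.18 for PSMA3, 0.18 for PSMA4 and 0.14 for PSMA6. PSMG2 differed in the other direction, with -0.25. PSMA6 was the gene among them that did not pass against 0 min (adjusted p = 0.0867, edgeR).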

How the results depend on the processing

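At 5, 10 and 30 min, 0 proteasome genes passed under every alternative run. At 240 min against 0 min, 17 passed (13 higher and 4 lower), and the total was 0 with ERCC scaling (0 higher and 0 lower), 9 to 18 with a library left out (6 to 14 higher and 1 to 4 lower), and limma on TPM called 1 lower with each of its 3 settings. All 17 kept their sign under each alternative. At 240 min against 30 min the total of 13 became 0 with ERCC scaling (0 higher and 0 lower) and 10 to 15 with a library left out (9 to 13 higher and 1 to 2 lower). Of all genes called at 240 min against 0 min, 2847 of 5676 were higher, against 331 of 1059 with ERCC scaling and 2783 of 4584 with limma on log2(TPM + 1). The numbers of replicates did not pair the libraries (correlations of deviations from -0.115 to 0.133), and the replicate block gave 13 higher and 4 lower at 240 min against 0 min and 12 higher and 1 lower against 30 min. The genes whose log2 fold change at 240 min against 0 min changed sign had not passed. They numbered 12 with ERCC scaling and 3 with each limma setting. Leaving out a library changed the sign of 5 (0 min replicate 2), 4 (240 min replicate 2) or 2 (0 min replicate 1). Only some of the uncalled genes were followed one by one. Of these, PSMB8 was at 0.091, 0.093 and 0.091 with limma on log2(TPM + 1), on log2(TPM + 0.1) and above 1 TPM, and PSME1 at 0.013 with each. With a library left out PSME1 ranged from -0.047 to 0.0012 and PSME2 from -0.025 to 0.11 (sign changed without 0 min replicate 2), PSMB9 from -0.013 to 0.37 (without 0 min replicate 1) and PSMB10 from -0.042 to 0.28 (without 240 min replicate 2). With ERCC scaling PSME2 was at -0.073 and PSMF1 at -0.034. Proteasome genes with an IR peak numbered 14 of 48 with 20 kb (29.2%, all genes 21.2%) and 3 with scores above the median (6.25%, all genes 8.77%), against 9 (18.8%, all genes 15.7%), so the order of the shares turned with the higher scores. For each change the cause was not tested. Genes of low counts, such as PSMB9 (48 to 140 counts per library), had the widest errors.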
